A study of Mus musculus with 14 samples.

Results

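The tumour response of the lung minus the tumour response of the gastrocnemius, a calf muscle, was taken in all 14 libraries of the series, as (tumour-bearing lung minus control lung) minus (tumour-bearing muscle minus control muscle). A positive value of this difference means that RNA of a gene moved further upward, or less far downward, in lung than in muscle. All mice were C57BL/6 (C57BL/6NCrlOri) males of 6 to 8 weeks, and the model places cells of a line named KrasIKKaL in the airways through the trachea. The 4 groups, read from the titles, were control lung (lung CON, 3 libraries), tumour-bearing lung (lung TB, 5 libraries), control gastrocnemius (muscle CON, 3 libraries) and tumour-bearing gastrocnemius (muscle TB, 3 libraries). The labels used here state neither the treatment of the controls nor whether lung and muscle came from the same mice. They also leave unsaid whether each library is its own animal, and the p-values therefore rest on the spread among libraries, part of which may be technical. Tumour cells grow in the lung itself, and their RNA was not separated from that of the host.

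Of 19834 genes tested, 11883 were counted in both tissues, with a mean over the 2 group means of at least 1 CPM, the counts scaled to a common library size, in each. The other 7951 were left out of the description of classes. Genes were placed in 4 classes. A response was called opposite where both tissues changed, in opposite directions, and the difference itself passed the test. It was called shared where both tissues changed in the same direction. It was called confined to a tissue where that tissue changed by at least 1 on the log2 scale, the difference passed, and the 95% interval of the other tissue's change lay between -1 and 1.

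Cachexia is the loss of muscle mass that accompanies many cancers. Wasting muscle breaks protein down through the ubiquitin-proteasome system and through autophagy, and FoxO transcription factors, glucocorticoid hormone and interleukin-6 signalling through STAT3 are known to drive the genes involved. A growing lung tumour, in contrast, needs membrane lipid, ribosomes, glycolytic enzymes and the replication machinery, and it displaces the airway, alveolar and vascular cells of the normal lung. For genes counted in both tissues, the RNA changes in lung and muscle were compared, with tumour and host RNA mixed in tumour-bearing lung.

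Totals ran from 47947363 to 61087315 counts in the lung libraries and from 32476194 to 44169410 in the muscle libraries. Tissue markers went with the labels: Sftpc, the surfactant protein C gene, had 8385 to 9767 CPM in control lung and was listed at 0 in every muscle library, and Acta1, skeletal muscle actin, had 42281 to 56364 CPM in control muscle and at most 0.239 in any lung library. Markers of other cell types moved with the tumour. In lung, 18 of 18 endothelial markers fell (summed level 3559 to 3631 CPM in control and 255 to 510 in tumour-bearing lung), as did 10 of 10 alveolar type 2 markers (14975 to 16235 against 123 to 835), while 7 of 10 epithelial markers rose (1103 to 1119 against 8288 to 14995). In muscle, 2 of 6 red blood cell markers rose (735 to 1182 against 877 to 13800), a count that was 5 without tumour-bearing muscle 2, 1 without control lung 1, 2 or 3, and 0 without control muscle 1, 2 or 3 or tumour-bearing muscle 3. In bulk RNA, fewer cells of a type and less RNA per cell cannot be told apart. Levels in CPM are relative to library sizes scaled over both tissues and serve for comparison within a tissue.

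The responses of the tissues differed in a large share of genes. The difference passed the threshold for 7057 of 19834 genes tested (35.6%), higher in lung for 3287 and lower for 3770, and for 4979 of the 11883 genes counted in both (41.9%), with 19.5% higher and 22.4% lower. On log2(TPM + 1), the share higher among the calls was 26.6% rather than 46.6%; there the median difference of all genes was -0.33, against -0.05 here. Lung itself changed in 6301 of the 11883 genes (53%) and muscle in 2737 (23%), with 27.1% higher and 25.9% lower in lung and 13.7% higher and 9.31% lower in muscle. Over all genes tested, these shares were 54.7% for lung and 17.4% for muscle, the latter made of 9.48% higher and 7.96% lower. The groups shared an estimate of spread for each gene, so the muscle p-values also rest on the lung libraries. With each tissue fitted alone, muscle had 1226 higher and 970 lower genes rather than 1881 and 1578. Lung then had 5825 and 5608 rather than 5133 and 5716. In the joint fit, muscle had 809 and 660 without control muscle 3, and 2551 and 2615 without tumour-bearing muscle 2. Of the 1631 genes higher in tumour-bearing muscle, 32.9% were also higher in lung and 14.9% were lower there. Of the 1106 genes lower in muscle, 37.4% were also lower in lung and 24.7% were higher there. Across the 11883 genes, the log2 changes of the tissues had a Pearson correlation of 0.116 and a Spearman correlation of 0.109, given as a description, since genes are not independent replicates and the libraries of a tissue share their scaling.

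**Figure D1:**
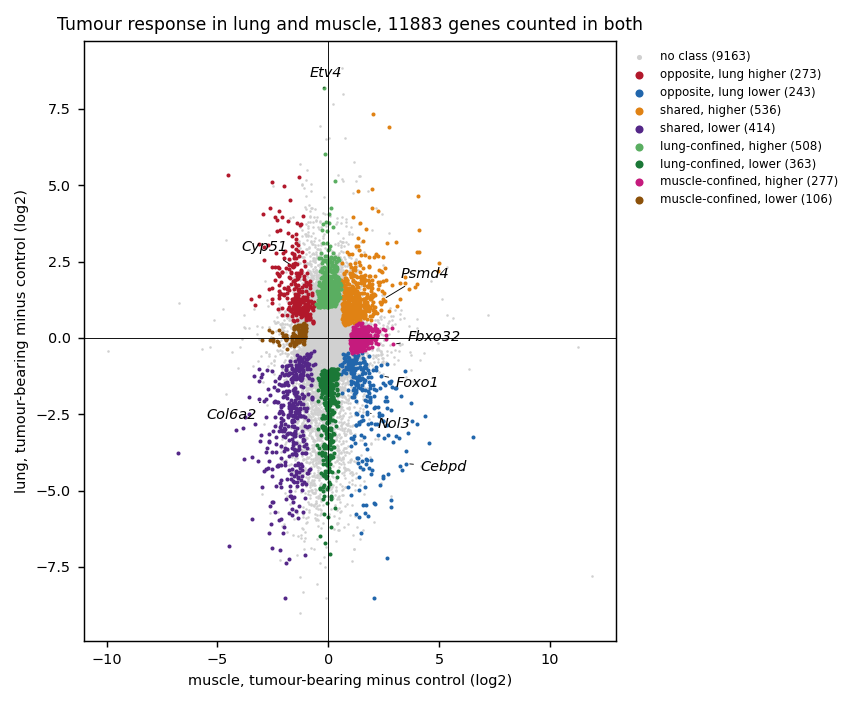
Log2 change of tumour-bearing over control in muscle (horizontal) and in lung (vertical), 1 point for each of the 11883 genes counted in both tissues, coloured by response class. The 273 and 243 opposite genes sit in the upper left and lower right, the 536 and 414 shared genes in the upper right and lower left, and the confined genes along the axes.

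By class, 516 genes had opposite responses: 273 were higher in lung and lower in muscle (2.3% of genes counted in both) and 243 were lower in lung and higher in muscle (2.04%). Shared responses were seen for 950 genes, of which 536 were higher in both tissues (4.51%) and 414 lower in both (3.48%). In 731 of these 950 the difference between the tissues did not pass, and in 219 it did, so that the direction was common but the size was not. Responses confined to lung were found for 871 genes, 508 higher (4.28%) and 363 lower (3.05%), and responses confined to muscle for 383, 277 higher (2.33%) and 106 lower (0.892%). The remaining 9163 genes met no rule, although the difference passed for 2990 of them.

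Class counts moved with single libraries and settings more than the count of differences did. The opposite count was 516 with all libraries, and it was 323, 212 and 216 without control muscle 1, 2 and 3, 236 and 908 without tumour-bearing muscle 1 and 2, and 328, 309 and 311 without control lung 1, 2 and 3. The shared count of 950 became 506 and 467 without control muscle 2 and 3 and 558 without tumour-bearing muscle 1. The 871 lung-confined genes became 574 and 546 without control muscle 1 and 2. The 383 muscle-confined genes became 226 and 212 without control muscle 2 and 3, 208 and 818 without tumour-bearing muscle 1 and 2, and 194, 204 and 200 without control lung 1, 2 and 3. DESeq2 gave 793 opposite genes, and log2(TPM + 1) gave 148 opposite, 313 shared, 1813 lung-confined and 159 muscle-confined genes. Confinement depends on the bound: with the other tissue held between -0.5 and 0.5, 20 genes met the rule for lung and 16 for muscle.

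**Figure D2:**
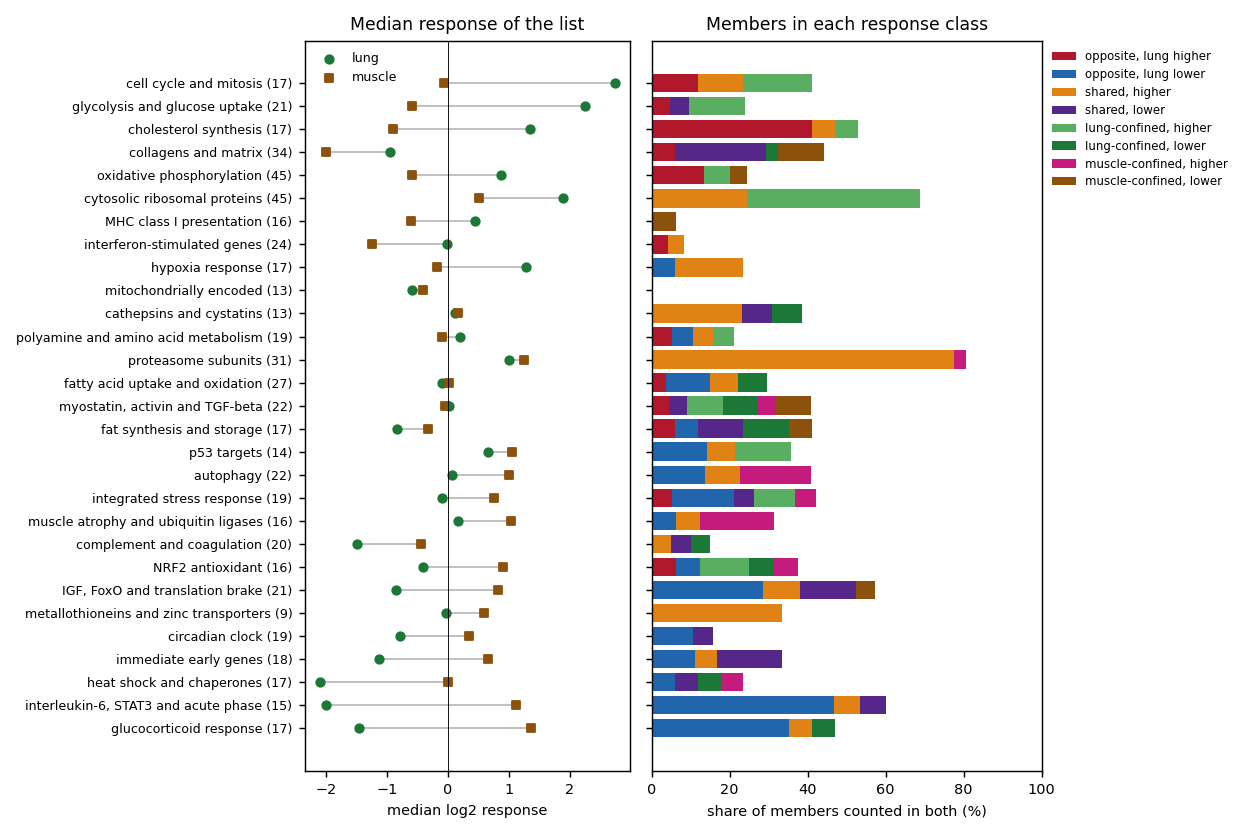
Left, the median log2 change of each pathway list in lung (circles) and muscle (squares); right, the percentage of its members in each response class, with the number of members counted in both tissues in brackets. Cholesterol synthesis leads the lists for opposite responses with lung higher (7 of 17), interleukin-6 and STAT3 for opposite responses with lung lower (7 of 15), and proteasome subunits for shared rises (24 of 31).

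Cholesterol synthesis was the list with the most opposite genes among those in which lung was higher. Of 17 members, all counted in both tissues, 12 rose in lung and 10 fell in muscle, and the difference was higher in lung for 13. Their median change was 1.35 in lung and -0.91 in muscle, beside 0.06 and -0.01 over all genes counted in both. Opposite responses included those of Hmgcs1, Sqle, Cyp51, Msmo1 and Nsdhl, which are enzymes along the path, and of Srebf2, the transcription factor that controls them. A member that went with neither pattern was Fdft1, squalene synthase, which rose in both, by 1.38 in lung and 1.74 in muscle. These genes other than Cyp51 were chosen after their values were seen. The 7 opposite genes became 4 without control muscle 3 and 3 without tumour-bearing muscle 1, and none on log2(TPM + 1), where 1 rather than 10 members were lower in muscle. Without control muscle 3 or tumour-bearing muscle 1, 5 were lower in muscle, while 12 to 13 differences were higher in lung whichever library was left out.

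Cyp51, which encodes lanosterol demethylase, had 16, 18 and 18.2 CPM in control lung and 87.1, 115, 88.1, 82.6 and 74.2 in tumour-bearing lung. In muscle it had 8.66, 9.87 and 12.8 CPM in control and 3.21, 3.42 and 3.5 in tumour-bearing libraries. The groups did not overlap in either tissue. Over all genes counted in both, the groups were separate for 62.3% in lung and for 42.4% in muscle. For genes named by their small p-values in both tissues, here and below, separation largely follows from that choice. The change was 2.36 ± 0.20 (SE; adjusted p = 3.27e-07) in lung and -1.63 ± 0.22 (adjusted p = 0.000572) in muscle, and the difference was 3.99 ± 0.30 (adjusted p = 7.14e-07). Hmgcs1, the cytosolic HMG-CoA synthase at the head of the path, had 47.7, 49.5 and 49.4 CPM in control lung and 73.9, 104, 102, 85.6 and 108 in tumour-bearing lung, against 61.8, 59.4 and 79.4 in control muscle and 16.1, 30.1 and 19.6 in tumour-bearing muscle. Again no group overlapped its counterpart, and the difference was 2.56 ± 0.33 (adjusted p = 5.04e-05).

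The Hmgcs1 upstream sequence is shown because sterol-responsive genes are known to carry a site for SREBP factors near the start. The 250 bases before its RefSeq start (GRCm38.p6, chr13:119690101-119690350, plus strand) hold 1 match, in capitals, to the letters TCACNCCAC, searched on both strands.
Hmgcs1: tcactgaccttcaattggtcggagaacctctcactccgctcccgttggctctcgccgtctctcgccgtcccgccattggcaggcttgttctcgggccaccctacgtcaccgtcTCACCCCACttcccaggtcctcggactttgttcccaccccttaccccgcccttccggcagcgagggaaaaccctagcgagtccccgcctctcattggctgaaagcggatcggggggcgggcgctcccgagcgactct
Of the 11 list members with a RefSeq upstream sequence here, Hmgcs1 alone held these letters, as did 1.04% of all 27025 such windows. A match of letters is a description of the sequence and does not show a site in use.

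The 5 opposite genes with lung higher that met the naming rule were Cyp51, described above, Oaf, C1qtnf6, Arhgap18 and Spats2l. Oaf had 3.67, 3.56 and 3.78 CPM in control lung and 38, 31.1, 31.9, 24 and 19.1 in tumour-bearing lung, while in muscle it had 14.1, 15.8 and 10.9 CPM in control and 1.18, 2.12 and 2.18 in tumour-bearing libraries. Its groups did not overlap in either tissue, and its difference was 5.89 ± 0.43 (adjusted p = 6.69e-07), made of changes of 2.97 in lung and -2.91 in muscle. C1qtnf6, a secreted protein related to complement C1q, differed by 5.15 ± 0.41. Arhgap18, a GTPase-activating protein that acts on the actin skeleton, rose from 21.4 ± 0.33 to 53.6 ± 9.29 CPM (SD) in lung (n = 3 and 5) and fell from 10.8 ± 1.48 to 2.29 ± 0.959 in muscle (n = 3 and 3). Spats2l had a difference of 3.47 ± 0.35 and no overlap in either tissue.

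Other opposite genes with lung higher came from several lists. Aurka, the Aurora A kinase of mitosis, rose by 3.52 in lung and fell by 2.16 in muscle on the log2 scale, with a difference of 5.68 ± 0.53 (adjusted p = 3.96e-06). Ugdh, which makes UDP-glucuronate, differed by 4.20 ± 0.44, though its opposite class was lost without control muscle 3 or tumour-bearing muscle 1. Smox, spermine oxidase, changed by 2.33 in lung and -2.28 in muscle, and Inhba, the activin A subunit gene, by 2.33 and -2.52. Fn1, fibronectin, changed by 2.18 and -1.22, and Col8a1, a short-chain collagen, by 1.55 and -2.24. The opposite class of Inhba was lost without control muscle 3 or tumour-bearing muscle 1, that of Fn1 without control muscle 1, 2 or 3 or tumour-bearing muscle 1 or 2, and that of Col8a1 without any 1 of the 6 control libraries or tumour-bearing muscle 1. Smox, Inhba, Fn1 and Col8a1 were chosen after their values were seen.

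Subunits of oxidative phosphorylation, the respiratory chain and ATP synthase of mitochondria, moved apart, rising in lung and falling in muscle by their medians. Of 45 nuclear-encoded members, 33 rose in lung and 9 fell in muscle, and the difference was higher in lung for 37 (33 to 39 with any library left out, and 21 on log2(TPM + 1)). The median change was 0.88 in lung and -0.60 in muscle, and on log2(TPM + 1) it was 0.50 and -0.62. Cyc1, cytochrome c1, changed by 0.88 in lung and -1.31 in muscle and was chosen after its values were seen. Atp5a1, the ATP synthase alpha subunit, changed by 1.06 ± 0.19 and -0.64 ± 0.21, its muscle change lying just inside the threshold (adjusted p = 0.0497). It was opposite in 3 of the 14 omissions of a library, those of tumour-bearing lung 2, tumour-bearing lung 5 and tumour-bearing muscle 2. The 9 members lower in muscle became 3, 1 and 4 without control muscle 1, 2 and 3, 1, 19 and 4 without tumour-bearing muscle 1, 2 and 3, and 5 without control lung 3, and they were 3 on log2(TPM + 1). Of 13 genes encoded by mitochondria themselves, the difference was higher in lung for 1, lower for 1 and did not pass for 11. The 1 lower became 0 to 2 with a library left out and 6 on log2(TPM + 1). In lung 4 fell (2 to 5 with a library left out) and none rose, and in muscle none passed. Median changes were -0.59 in lung and -0.41 in muscle. The higher difference was that of mt-Co3, a cytochrome oxidase subunit, at 3.09 ± 0.86 (adjusted p = 0.0124). Nuclear copies could share its reads. The change of mt-Co3 itself passed in neither lung (adjusted p = 0.0902) nor muscle (adjusted p = 0.0552). Mitochondrial genes took 16.16% to 34.11% of counts in muscle and 1.57% to 4.3% in lung.

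The mirror image, lower in lung and higher in muscle, was seen most in the interleukin-6, STAT3 and acute phase list. Of 15 members counted in both tissues, 13 fell in lung and 9 rose in muscle, and the difference was lower in lung for 13, in every omission of a library as well. The median change was -2.01 in lung and 1.12 in muscle. Opposite responses were found for Il6ra, the interleukin-6 receptor, for Stat3, for the STAT3 targets Pim1, Cebpd, Cebpb and Lrg1, and for Serpina3n, a secreted protease inhibitor. These became 4 genes without control muscle 2, and 4 on log2(TPM + 1). Il6st and Osmr, receptor chains of the same cytokine family, fell by 3.28 and 2.85 in lung, with muscle changes of 0.53 and 0.88 that did not pass. Tnfrsf12a, the Fn14 receptor, departed from the pattern and rose in both tissues, by 2.72 and 1.64. Members other than Cebpd were chosen after their values were seen.

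Cebpd, a C/EBP transcription factor of the acute phase, had 151, 176 and 167 CPM in control lung and 8.93, 5.97, 11.1, 12.5 and 8.8 in tumour-bearing lung. In muscle it had 38, 36 and 39.1 CPM in control and 556, 146 and 592 in tumour-bearing libraries. Neither tissue showed overlap, although tumour-bearing muscle 2 sat well below its 2 neighbours. The change was -4.12 ± 0.36 (adjusted p = 3.88e-07) in lung and 3.52 ± 0.43 (adjusted p = 0.000349) in muscle, a difference of -7.63 ± 0.58 (adjusted p = 8.18e-07). Il6ra had 58.3, 56.7 and 57.8 CPM in control lung and 12.1, 8.86, 21.2, 15.9 and 19.6 in tumour-bearing lung, against 5.83, 6.3 and 4.73 in control muscle and 88.8, 21.8 and 53.2 in tumour-bearing muscle. No values overlapped, and the difference was -5.17 ± 0.56 (adjusted p = 1.26e-05). For Il6ra, too, tumour-bearing muscle 2 was the lowest of its group.

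**Figure D3:**
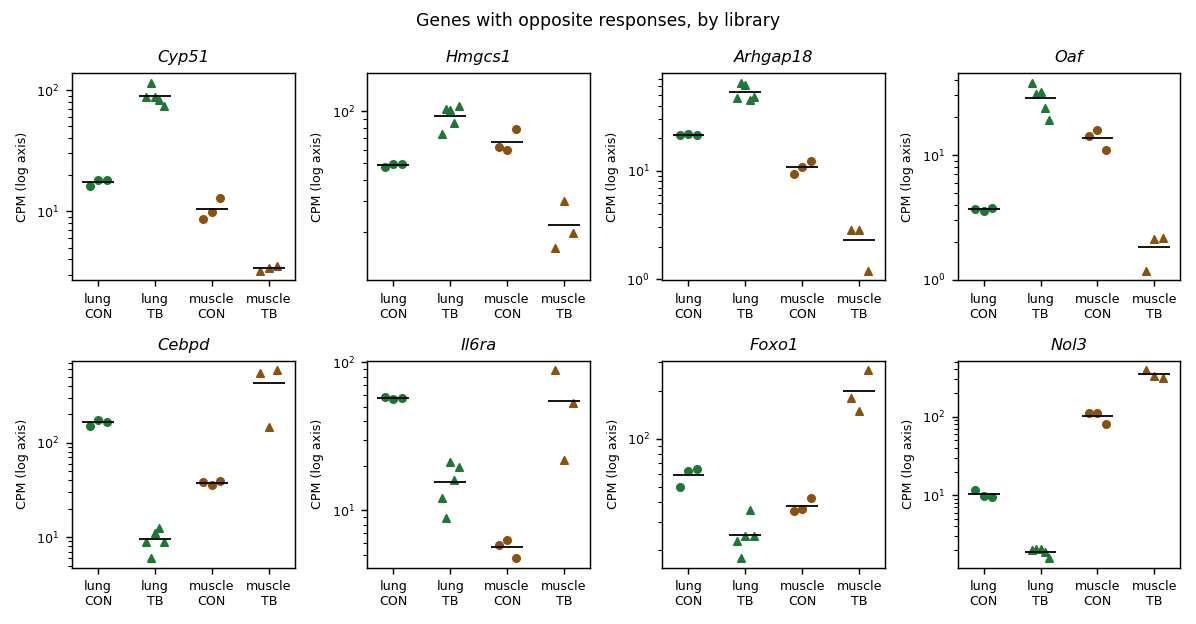
CPM on a log axis in each library for 8 genes with opposite responses; circles are control and triangles tumour-bearing libraries, lung in green and muscle in brown, and the bars are group means. The top row rises in lung and falls in muscle, the bottom row falls in lung and rises in muscle, and no tumour-bearing library overlaps its controls. Of all genes counted in both, 62.3% had separate groups in lung and 42.4% in muscle.

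Genes of the glucocorticoid response were lower in lung and higher in muscle in 6 cases. Of 17 members, 11 fell in lung and 9 rose in muscle, and the difference was lower in lung for 12 and higher for none; 11 to 13 passed with a library left out, and muscle held 5 rises without control muscle 2 or 3. The median change was -1.47 in lung and 1.36 in muscle. Klf15 and Zbtb16, transcription factors induced by the hormone, changed by -5.54 and -5.49 in lung and by 2.81 and 1.72 in muscle. The opposite class of Klf15 was lost without control muscle 2 or 3 or tumour-bearing muscle 1, and Zbtb16 was opposite in 4 of 14 omissions, those of tumour-bearing lung 2, 3 and 5 and tumour-bearing muscle 2. Fkbp5, a co-chaperone of the receptor, was the shared member, with rises of 1.79 ± 0.38 in lung and 3.44 ± 0.44 in muscle. The 6 opposite members became 3, 2 and 2 without control muscle 1, 2 and 3 and 3 without tumour-bearing muscle 1 or 3. Hsd11b1, the enzyme that regenerates active glucocorticoid, fell by 4.41 in lung and had a muscle change of 0.34 ± 0.32, a difference of -4.74 ± 0.44 (adjusted p = 4.07e-06). Klf15, Zbtb16 and Fkbp5 were chosen after their values were seen.

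Insulin-like growth factor signalling, FoxO factors and brakes on translation gave 6 opposite genes of 21, all lower in lung and higher in muscle: Foxo1, Foxo3, Akt2, Pik3r1, Mtor and Sesn1. The difference was lower in lung for 12 members and higher for 1 (2 without tumour-bearing muscle 2), and 11 or 12 passed in the lower direction with any library left out. Foxo1 had 49.9, 62.6 and 64.8 CPM in control lung and 22.7, 17.8, 24.5, 35.5 and 24.6 in tumour-bearing lung. In muscle it had 35.1, 36.2 and 42.5 CPM in control and 180, 149 and 269 in tumour-bearing libraries. The groups stood apart in both tissues, and the difference was -3.63 ± 0.36 (adjusted p = 6.05e-06). Sesn1, a sestrin that restrains mTOR and is also a p53 target, differed by -6.49 ± 0.70 (adjusted p = 1.19e-05); its tumour-bearing muscle values of 350, 43 and 204 CPM were spread widely but all exceeded the control values of 12.6 to 16.5. Pik3r1, the regulatory subunit of PI3 kinase, changed by -2.02 in lung and 1.90 in muscle. Igf1 itself fell in muscle by 1.90 on the log2 scale and changed by -0.05 ± 0.36 in lung, and it met the rule for confinement to muscle except without control lung 1 or tumour-bearing lung 1. Of these, all but Foxo1 and Sesn1 were chosen after their values were seen. On log2(TPM + 1), 3 members of the list were opposite.

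**Figure D4:**
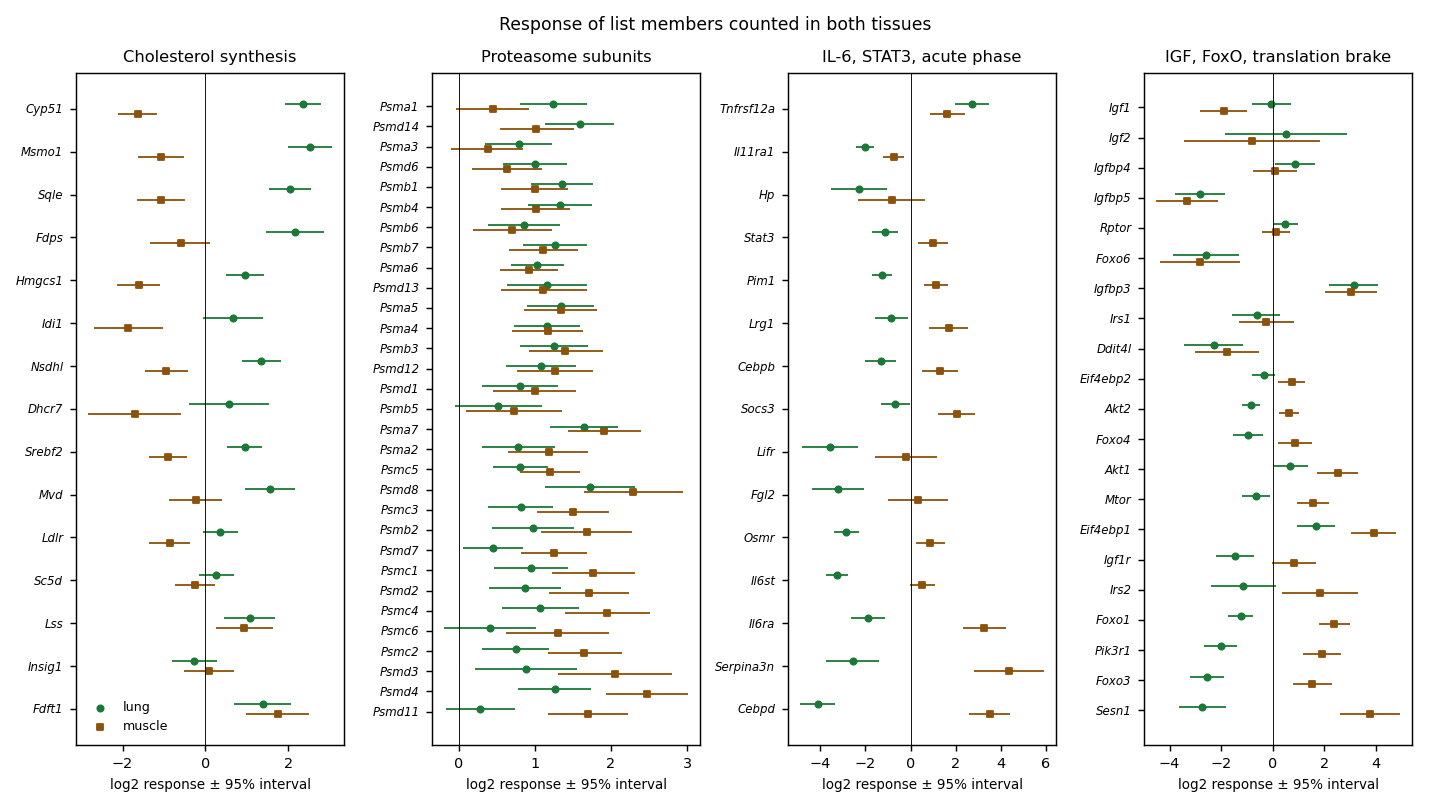
Log2 change with its 95% interval in lung (circles) and muscle (squares) for members of 4 lists counted in both tissues, leaving out 2 cholesterol genes that are not reported here, ordered by the difference between tissues. Intervals lie on opposite sides of 0 for Cyp51, Msmo1, Sqle, Hmgcs1, Nsdhl, Srebf2, Cebpd, Serpina3n, Il6ra, Sesn1, Foxo3, Pik3r1 and Foxo1, while every proteasome subunit has both changes above 0.

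The 5 opposite genes with lung lower that met the naming rule were Galnt15, Nol3, Pdlim3, Acer2 and Cebpd. Nol3, a repressor of apoptosis found in muscle, had 11.5, 9.65 and 9.61 CPM in control lung and 2.02, 2.04, 2.07, 1.86 and 1.57 in tumour-bearing lung, against 113, 112 and 81.4 in control muscle and 394, 327 and 314 in tumour-bearing muscle. Groups did not overlap, and the difference was -4.18 ± 0.27 (adjusted p = 3.37e-07). Galnt15, a transferase of O-linked glycosylation, differed by -7.64 ± 0.51, Acer2, a ceramidase, by -7.41 ± 0.52, and Pdlim3, a protein of the muscle Z-disc, by -6.09 ± 0.30. Glul, glutamine synthetase, went from 470 ± 6.54 to 170 ± 68.6 CPM in lung (n = 3 and 5) and from 233 ± 29.4 to 1295 ± 216 in muscle (n = 3 and 3), a difference of -3.94 ± 0.45 (adjusted p = 2.02e-05). Lpin1, a phosphatidate phosphatase of fat synthesis, differed by -2.92 ± 0.32, and Acot1, an acyl-CoA thioesterase, by -8.13 ± 0.63. Tfeb, the master regulator of lysosome genes, changed by -1.40 ± 0.19 in lung and 1.01 ± 0.22 in muscle.

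Clock, heat shock and immediate early genes were also lower in lung than in muscle by their differences, though few were opposite. For the clock, the difference was lower in lung for 10 of 19 members and higher for 2, and Rora, a nuclear receptor of the clock, changed by -3.65 ± 0.24 in lung and 1.75 ± 0.27 in muscle. Of 17 heat shock genes, 13 fell in lung and 2 rose in muscle, and 12 differences were lower in lung. Hspb1, a small heat shock protein, was the opposite member, at -1.65 and 1.90. Cryab, the alphaB-crystallin chaperone, fell by 3.84 in lung and changed by -0.15 ± 0.28 in muscle, confined to lung except without tumour-bearing muscle 2. Of 18 immediate early genes, 12 differences were lower in lung; Jun changed by -6.19 ± 0.28 in lung and by 0.73 ± 0.28 in muscle, where it did not pass (adjusted p = 0.0823). Egr1 and Btg2 met the rule for opposite responses and Nr4a1, Nr4a2 and Klf2 that for shared falls, but the muscle groups of Egr1, Btg2 and Nr4a1 overlapped. The 2 opposite genes became 1 without control lung 1, 2 or 3, control muscle 1 or tumour-bearing muscle 3, and 0 without control muscle 2 or 3 or tumour-bearing muscle 1 and on log2(TPM + 1). The 3 shared falls became 1 without control lung 2 or 3 and on log2(TPM + 1), and Nr4a1 alone was also lost without control lung 1, control muscle 1 or 2 or tumour-bearing muscle 2 or 3. These 5 and Hspb1 were chosen after their values were seen.

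Proteasome subunits were the list that both tissues shared most. All 31 were counted in both tissues, 28 rose in lung and 26 in muscle, and 24 rose in both, a class that held 4.51% of all genes. The median change was 1.00 in lung and 1.25 in muscle. Leaving out 1 library gave 21 to 25 shared subunits, and log2(TPM + 1) gave 10, with 11 rather than 28 rises in lung. The difference passed for 4 members, all lower in lung, a count that was 2 without control lung 1, 2 or 3, tumour-bearing lung 5 or control muscle 2 or 3, 9 without tumour-bearing lung 2, 7 without tumour-bearing muscle 2 and 9 on log2(TPM + 1). Psmd11, a lid subunit of the regulatory particle, was the member confined to muscle by the rule, at 1.70 ± 0.24 there and 0.28 ± 0.21 in lung. Its tumour-bearing values exceeded the controls in lung as well, and it did not meet the rule with each tissue fitted alone.

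Psmd4, the subunit that binds ubiquitin chains, had 54.2, 51.2 and 51.5 CPM in control lung and 99.2, 108, 120, 131 and 168 in tumour-bearing lung. In muscle it had 213, 226 and 220 CPM in control and 1140, 958 and 1551 in tumour-bearing libraries. No values overlapped, and the rise was larger in muscle, 2.47 ± 0.25 against 1.26 ± 0.22, with a difference of -1.21 ± 0.32 (adjusted p = 0.00882). Psma7, an alpha-ring subunit of the core, rose from 36.5 ± 0.973 to 115 ± 29.0 CPM in lung and from 97.5 ± 3.31 to 366 ± 22.3 in muscle. Its changes of 1.65 and 1.91 did not pass the test of their difference, whose 95% interval ran from -0.88 to 0.36 (adjusted p = 0.531). Trmt1, a tRNA methyltransferase, rose by 1.35 and 1.79, and Eif3g, an initiation factor subunit, by 0.90 and 1.52. The remaining gene named for a shared rise, Llph-ps2, is a pseudogene whose reads may belong to its parent gene.

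Ctsl, cathepsin L, the lysosomal protease that the series' title names, rose in both tissues. It had 99.7, 98.4 and 104 CPM in control lung and 281 ± 126 (SD, n = 5) in tumour-bearing lung, where the highest library had 485, against 78, 73.6 and 52.1 in control muscle and 391 ± 329 (SD, n = 3) in tumour-bearing muscle, where the highest library had 764. All tumour-bearing values exceeded the controls of their tissue, with a wide spread. The change was 1.48 ± 0.47 (adjusted p = 0.0143) in lung and 2.53 ± 0.52 (adjusted p = 0.00619) in muscle. The difference of -1.05 ± 0.66 did not pass (95% interval -2.45 to 0.36, adjusted p = 0.235), and the shared call was lost without control lung 2. Of the 13 members of the cathepsin and cystatin list counted in both tissues, 3 rose in both and 1 fell in both. The 3 became 1 without control lung 1 or 3, control muscle 1, 2 or 3 or tumour-bearing muscle 1, and 0 without control lung 2 and on log2(TPM + 1). The 1 shared fall was lost without any 1 of the 6 control libraries or tumour-bearing muscle 1 or 3. Ctsf, cathepsin F, fell by 2.55 in lung and changed by 0.53 ± 0.31 in muscle, a difference of -3.09 ± 0.41.

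Metallothioneins, small proteins that bind zinc and copper, were a further shared rise, larger in muscle. Mt2 had 35.1, 61.7 and 62 CPM in control lung and 97.2, 113, 444, 321 and 479 in tumour-bearing lung, against 23.4, 30.3 and 56.1 in control muscle and 1598, 335 and 1546 in tumour-bearing muscle. Groups did not overlap in either tissue. Its changes of 2.46 in lung and 4.99 in muscle differed by -2.53 ± 0.85 (adjusted p = 0.0316). Mt1 changed by 2.20 ± 0.59 and 4.97 ± 0.71, a difference of -2.77 ± 0.81 (adjusted p = 0.0162). Slc39a14, a zinc importer, rose by 1.98 and 3.46, whereas Slc30a1, a zinc exporter, fell by 2.05 in lung and had a muscle change of 0.60 ± 0.30. Metallothionein genes and Slc39a14 were chosen after their values were seen, and each kept its shared class with every library left out.

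The upstream sequences of Mt1 and Mt2 are shown because both genes are textbook examples of control through metal response elements. Capitals mark matches on either strand to the letters TGCACNC or TGCGCNC in the 250 bases before the RefSeq start (GRCm38.p6), chr8:94178839-94179088 for Mt1 and chr8:94172368-94172617 for Mt2, both on the plus strand.
Mt1: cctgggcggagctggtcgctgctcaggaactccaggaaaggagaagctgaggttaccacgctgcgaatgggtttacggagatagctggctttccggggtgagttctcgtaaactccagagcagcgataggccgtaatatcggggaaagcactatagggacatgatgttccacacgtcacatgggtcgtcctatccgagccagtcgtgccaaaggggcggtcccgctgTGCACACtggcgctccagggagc
Mt2: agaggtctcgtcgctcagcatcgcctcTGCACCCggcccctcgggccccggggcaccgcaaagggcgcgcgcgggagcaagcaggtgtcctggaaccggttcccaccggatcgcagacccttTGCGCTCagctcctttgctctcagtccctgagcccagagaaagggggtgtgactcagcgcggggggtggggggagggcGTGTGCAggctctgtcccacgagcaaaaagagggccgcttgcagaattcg
Mt1 held 1 match, 23 bases before the start, and Mt2 held 3, at 223, 128 and 50 bases. At least 1 match was present in 21.3% of the 27025 windows and in 6 of the 11 windows of the metallothionein and zinc transporter list, and 3 or more were present in 0.773% of all windows. No more than the letters is shown by this. Other bases of the known element were not searched, nor was sequence outside these windows, including that beyond the RefSeq start.

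In the list of insulin-like growth factor signalling, FoxO factors and brakes on translation, 2 of the 21 members, Eif4ebp1 and Igfbp3, rose in both tissues. Eif4ebp1, which holds back cap-dependent translation, had 29, 30.5 and 28 CPM in control lung and 45.9, 65.9, 82.1, 99.9 and 168 in tumour-bearing lung. In muscle it had 84.3, 87.9 and 90.4 CPM in control and 1504, 930 and 1510 in tumour-bearing libraries. The groups stood apart, and the rise was larger in muscle, 3.91 ± 0.41 against 1.66 ± 0.35 (difference -2.24 ± 0.49, adjusted p = 0.0028). Igfbp3 rose by 3.14 ± 0.45 in lung and 3.04 ± 0.47 in muscle, with a difference of 0.10 whose 95% interval ran from -1.14 to 1.34. Igfbp5, in contrast, fell in both, by 2.82 and 3.31. These genes were chosen after their values were seen.

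Collagens and other matrix genes were the pathway list with the most shared falls. Of 34 members, 22 fell in muscle and none rose there, while 14 fell and 6 rose in lung. Shared falls were found for 8 members, among them Col6a2, Col6a3, Fbn1 (fibrillin), Postn (periostin) and Serpinh1 (the collagen chaperone). The difference was higher in lung for 18 and lower for 6, the latter 3 without control muscle 1 or 2 or tumour-bearing muscle 3, and the former 7 on log2(TPM + 1). Fibroblast markers moved with these genes: 9 of 14 fell in lung (summed level 3312 to 3692 CPM in control and 527 to 1301 in tumour-bearing lung) and 8 of 14 fell in muscle (2752 to 3819 against 1289 to 3262), though 4 or 5 without any of control muscle 1, 2 and 3 and tumour-bearing muscle 1 and 3. Their part in the fall of the matrix genes was not tested. The list of matrix genes and the fibroblast list share Col1a1, Dcn, Lum and Mfap5. Genes of this paragraph other than Col6a2 were chosen after their values were seen.

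Col6a2, a chain of collagen VI, had 131, 127 and 122 CPM in control lung and 23.2, 41.8, 25.5, 23.1 and 38.9 in tumour-bearing lung, against 82.3, 87.1 and 73.5 in control muscle and 8.55, 13.1 and 10.9 in tumour-bearing muscle. No values overlapped. The change was -2.06 ± 0.22 (adjusted p = 3.16e-06) in lung and -2.90 ± 0.28 (adjusted p = 0.000132) in muscle. Their difference of 0.84 ± 0.35 did not pass (adjusted p = 0.0718) and had the other sign, -0.35, on log2(TPM + 1). The remaining genes named for a shared fall were Ulk4, a relative of the Ulk kinases, Ssc5d, a soluble scavenger receptor, Mrc2, the collagen uptake receptor Endo180, and Klhl23. Mrc2 fell by 2.93 in lung and 2.18 in muscle. Ulk4 went from 6.4 ± 0.105 to 0.469 ± 0.194 CPM in lung and from 10.7 ± 3.82 to 0.0939 ± 0.044 in muscle, where the 3 tumour-bearing libraries held 6 counts in all.

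Among rises confined to lung, the rule named Etv4, Tbx15, Rps2-ps10 and Padi2. Etv4, an ETS transcription factor that acts downstream of Ras signalling, had 0.256, 0.288 and 0.478 CPM in control lung and 67.4, 128, 87.3, 105 and 111 in tumour-bearing lung, whereas muscle stayed between 2.78 and 3.70 CPM in all 6 libraries. The lung groups stood far apart and the muscle groups overlapped. The lung change was 8.19 ± 0.35 (adjusted p = 1.52e-09), the muscle change -0.20 ± 0.27 (adjusted p = 0.663), and the difference 8.39 ± 0.42 (adjusted p = 4.37e-08). That difference was among the 3 highest of genes counted in both, with clones, predicted genes, receptor segments and unnamed genes left out. Tbx15, a T-box factor, rose from 0.0809 ± 0.0349 to 5.41 ± 2.10 CPM in lung and had 138 ± 27.6 and 124 ± 25.7 CPM in muscle. Padi2, a peptidylarginine deiminase, had a difference of 4.15 ± 0.46. Confinement was lost for Tbx15 without control muscle 2 or 3 or tumour-bearing muscle 2 or 3, and for Padi2 without tumour-bearing muscle 1 or 3. Rps2-ps10, a pseudogene that shares reads with Rps2, is named by the rule and is uncertain.

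**Figure D5:**
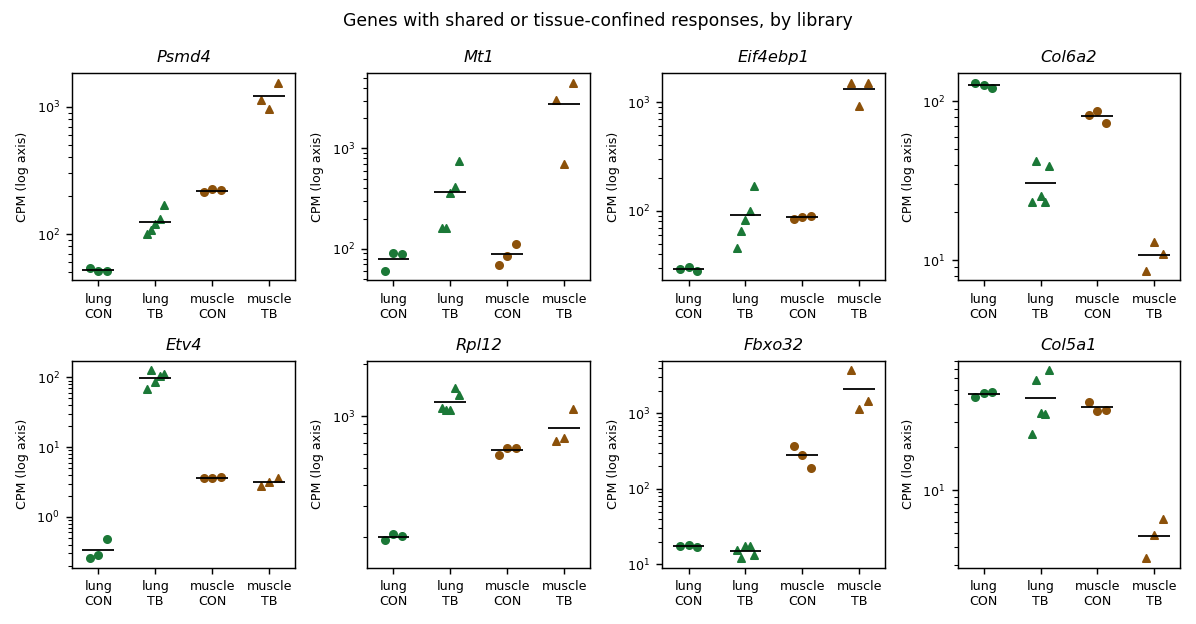
CPM on a log axis in each library for 8 genes with shared or confined responses, drawn as in the plot of opposite genes. Psmd4, Mt1 and Eif4ebp1 rise in both tissues and Col6a2 falls in both, Etv4 and Rpl12 are confined to lung, and Fbxo32 and Col5a1 are confined to muscle. Confinement is by the rule, and the muscle groups of Rpl12 do not overlap.

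Genes of ribosomal proteins, glycolysis and the cell cycle rose in lung in large part. All 45 cytosolic ribosomal protein genes rose in lung and 11 rose in muscle, and the difference was higher in lung for 44 (36 to 44 with a library left out, 27 on log2(TPM + 1)). Rpl12, of the large subunit, went from 199 ± 8.41 to 1215 ± 171 CPM in lung and from 637 ± 32.8 to 852 ± 212 in muscle, a difference of 2.19 ± 0.31 (adjusted p = 0.000115), and was confined to lung except without control muscle 2 or 3 or tumour-bearing muscle 1 or 2. All tumour-bearing values of Rpl12 exceeded the controls in muscle as well as in lung. By the rules above, 20 were confined to lung and 11 shared. The 20 became 10 without control muscle 2 or 3, 7 without tumour-bearing muscle 1 and 12 without tumour-bearing muscle 2. The 11 became 6, 5 and 5 without control lung 1, 2 and 3, 4, 3 and 2 without control muscle 1, 2 and 3, and 4 without tumour-bearing muscle 3. Ribosomal protein genes have many processed pseudogenes, and how reads were split among them affects these values.

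Of 21 genes of glycolysis and glucose uptake, 16 rose and 4 fell in lung, and the difference was higher in lung for 16. In muscle none rose and 2 fell, the latter 1 without control lung 1, 2 or 3 or control muscle 3 and 0 without control muscle 1 or 2 or tumour-bearing muscle 1 or 3. Eno1, enolase, had 69.4, 71.3 and 72.2 CPM in control lung and 609 to 1430 with a median of 928 in the 5 tumour-bearing lung libraries, while in muscle it had 132, 156 and 168 CPM in control and 98.7, 123 and 161 in tumour-bearing libraries. The lung groups did not overlap, the muscle groups did, and the difference was 4.0 ± 0.40 (adjusted p = 6.52e-06). Of 17 cell cycle genes counted in both, all rose in lung, with a median of 2.75, and 15 differences were higher in lung. Epithelial markers rose alongside, as given above, and their part in these rises was not tested. In the hypoxia list, 12 of 17 genes rose in lung and 7 differences were higher there; Ankrd37, a target of hypoxia-inducible factor, differed by 3.75 ± 0.70. Phgdh, the first enzyme of serine synthesis, differed by 4.38 ± 0.44.

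Among falls confined to lung, endothelial genes were the list with the most members: all 18 fell in lung, with a median of -4.01, and the difference was lower in lung for 17 (14 to 17 with a library left out). Pecam1, the CD31 adhesion protein, went from 491, 459 and 449 CPM in control lung to 19.5, 19.2, 27.7, 22.7 and 23.6, while the muscle values of 47.3, 54.3 and 65.3 in control and 63.2, 66.6 and 93.8 in tumour-bearing libraries overlapped. Pecam1 was chosen after its values were seen. The 8 members confined to lung by the rule became 3, 4 and 3 without control muscle 1, 2 and 3 and 4 without tumour-bearing muscle 2 or 3. Dnaja4, a DnaJ co-chaperone, had 121 ± 4.37 CPM in control lung and 1.15 ± 0.288 in tumour-bearing lung, against 93.2 ± 25.6 and 84.5 ± 27.5 in muscle, and its difference was -6.58 ± 0.42. Car14, a membrane carbonic anhydrase, differed by -6.31 ± 0.44, Tmcc2 by -6.12 ± 0.37 and Zfp641, a zinc finger gene, by -7.17 ± 0.64. Serping1, the C1 inhibitor of complement, fell by 3.57 in lung and changed by 0.25 ± 0.27 in muscle. Confinement was lost for Dnaja4 without tumour-bearing muscle 1, for Car14 without control muscle 1, and for Tmcc2 and Serping1 without control muscle 3 or tumour-bearing muscle 2. Zfp641 met the rule in 3 of 14 omissions, those of tumour-bearing lung 2, 3 and 5.

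Rises confined to muscle included ubiquitin ligase and autophagy genes. Fbxo32, the ubiquitin ligase atrogin-1 that marks muscle atrophy, had 370, 279 and 189 CPM in control muscle and 3768, 1128 and 1462 in tumour-bearing muscle. In lung it had 17.7, 18 and 16.8 CPM in control and 15.4, 12, 17.4, 17.3 and 13.3 in tumour-bearing libraries. The muscle groups did not overlap and the lung groups did. Muscle changed by 2.92 ± 0.40 (adjusted p = 0.000698), lung by -0.21 ± 0.34 (adjusted p = 0.618), and the difference was -3.13 ± 0.51 (adjusted p = 0.000347). It met the rule for confinement with all libraries, but not without control lung 1, 2 or 3 or tumour-bearing lung 3 or 4. Of 16 atrophy and ubiquitin genes counted in both, 7 rose in muscle and none fell, and the difference was lower in lung for 7 and higher for 1. Gadd45a, a stress-induced gene of wasting muscle, rose by 3.01 ± 0.39 in muscle and changed by -0.40 ± 0.32 in lung. Its lung interval of -1.07 to 0.28 kept it from meeting the rule for confinement.

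Of 22 autophagy genes, 13 rose in muscle (7 without control muscle 2 or 3 or tumour-bearing muscle 1, and 6 on log2(TPM + 1)) and none fell, and the difference was lower in lung for 10 and higher for none. Map1lc3b, the LC3 protein of the autophagosome membrane, had 192, 181 and 153 CPM in control muscle and 918, 590 and 766 in tumour-bearing muscle, against 147, 145 and 146 in control lung and 116 to 205 in the 5 tumour-bearing lung libraries. Only the lung groups overlapped, and the difference was -2.0 ± 0.34 (adjusted p = 0.000468). Sqstm1, the p62 cargo receptor, was also confined to muscle, while Gabarap and Bnip3 rose in both tissues. The shared call was lost for Gabarap without control lung 3 or control muscle 2, for Bnip3 without control muscle 2 or 3 or tumour-bearing muscle 1, and for both on log2(TPM + 1). Sqstm1, Gabarap, Bnip3 and Map1lc3b were chosen after their values were seen. Outside these lists, Nfkbib, an inhibitor of NF-kappaB, rose from 33.2 ± 4.87 to 244 ± 97.6 CPM in muscle and changed by 0.34 ± 0.24 in lung, confined to muscle except without control lung 1. Lrba, a protein of vesicle traffic, differed by -2.52 ± 0.44. S100a8, a calprotectin subunit of neutrophils, rose from 0.509 ± 0.339 to 2.98 ± 0.838 CPM in muscle, where the 3 control libraries held 26 counts in all. Its difference of -2.64 did not pass in limma on weighted counts, and its class was lost without control lung 1, 2 or 3 or tumour-bearing lung 2, 4 or 5. Of 8 neutrophil markers, a list and sum that include S100a8 itself, 6 rose in muscle. The summed level was 1.64 to 3.64 CPM in control and 11.7 to 12.8 in tumour-bearing libraries. The 3 markers counted in both tissues all rose in muscle, 2 or 3 with a library left out and 0 in limma on weighted counts. The part of neutrophils in the S100a8 rise was not tested.

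Falls confined to muscle included 4 matrix genes, Col5a1, Col5a2, Col5a3 and Loxl2, which became 1 without control lung 1, 2 without control lung 3 or tumour-bearing lung 2, and 1 on log2(TPM + 1). Col5a1, a chain of collagen V, had 41.4, 35.5 and 36.4 CPM in control muscle and 3.35, 4.87 and 6.26 in tumour-bearing muscle, while lung had 44.7, 47.2 and 48.2 CPM in control and 24.8, 58.2, 34.5, 34.1 and 68.8 in tumour-bearing libraries. The lung values lay on both sides of the controls, and the difference was 2.89 ± 0.46 (adjusted p = 0.000311), though not called on log2(TPM + 1). Col1a1, the main collagen I chain, had the largest difference of its list, 5.76 ± 0.72 (adjusted p = 3.94e-05). It fell in muscle by 5.16 ± 0.58 and changed by 0.59 ± 0.44 in lung, where its interval of -0.35 to 1.53 kept it from meeting the rule. Fstl1, a secreted follistatin-like protein, had a difference of 2.93 ± 0.47, and Aldh1a2, which makes retinoic acid, of 2.73 ± 0.56. Lst1, a leukocyte gene, had a difference of 2.54 ± 0.69. Each of these 3 met the rule in 7 of 14 omissions. Confinement was lost for Fstl1 without control lung 1, 2 or 3 or tumour-bearing lung 1, 3, 4 or 5, and for Aldh1a2 without control lung 1 or 3, tumour-bearing lung 1, 2, 3 or 4 or control muscle 2. For Lst1 it was lost without control lung 1, 2 or 3, tumour-bearing lung 1, 2 or 4 or control muscle 2. Psme1, the PA28 alpha subunit that serves antigen processing, fell by 1.35 ± 0.27 in muscle and changed by 0.31 ± 0.24 in lung. With it, the immunoproteasome subunits Psmb8, Psmb9 and Psmb10 had positive differences, of 2.72, 2.85 and 2.24; these 3 were chosen after their values were seen.

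At the ends of the scale, among genes open to the naming rule, the lowest differences were those of Rsc1a1, Lyz1 and Cdhr3. The highest were those of Fer1l6, Etv4 and Habp2. Lyz1, a lysozyme, went from 346 ± 8.05 to 0.939 ± 0.831 CPM in lung and from 7.05 ± 0.675 to 29.1 ± 13.3 in muscle, a difference of -10.56 ± 0.93; its reads could be split with its near copy Lyz2. Cdhr3, a cadherin of ciliated cells, differed by -9.88 ± 1.17. Fer1l6, of the ferlin family, differed by 9.83 ± 1.32, with 7 counts in all in the 3 tumour-bearing muscle libraries. The opposite class was lost for Lyz1 without control muscle 1, 2 or 3 or tumour-bearing muscle 1, for Cdhr3 without any 1 of the 6 control libraries or tumour-bearing muscle 1 or 3, and for Fer1l6 without control muscle 1. Habp2, a secreted protease, rose from 0.0904 ± 0.0268 to 42.3 ± 44.2 CPM in lung and had a difference of 8.20 ± 1.32. Rsc1a1 was at 0 in all 3 control muscle libraries and had 10.1, 6.07 and 0 CPM in tumour-bearing muscle and 0 to 7.09 in lung, so its fitted difference of -11.57 depends on the prior count and bounds nothing.

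Differences of further lists stand beside the 41.9% of all genes whose difference passed. Of 24 interferon-stimulated genes, the difference was higher in lung for 4 (7 without tumour-bearing lung 2, and 1 on log2(TPM + 1)), lower for none and did not pass for 20. Cxcl9, a chemokine induced by interferon gamma, was at 7.45 ± 1.54, a difference not called on log2(TPM + 1). It had 18.5 ± 25.3 CPM (SD) in tumour-bearing lung and 25 counts in all in the 3 tumour-bearing muscle libraries. Its muscle change did not pass (adjusted p = 0.142). Of 16 genes of MHC class I presentation, 5 were higher and none lower, the former 3 without control lung 2 or 3 or tumour-bearing muscle 3 and 2 without control muscle 3 or tumour-bearing muscle 1 and on log2(TPM + 1). No difference passed among 6 genes of antigen presentation by MHC class II counted in both, 5 of which fell in lung (2 without any 1 of control lung 1, 2 and 3, and 3 without tumour-bearing lung 1, 2, 4 or 5). For H2-Ab1, a class II chain, the difference was -2.05 ± 0.80 (adjusted p = 0.0592). Fatty acid genes gave 2 higher and 7 lower of 27, the former 1 without control lung 1, 2 or 3, tumour-bearing lung 1, control muscle 1 or 2 or tumour-bearing muscle 1 or 3. Genes of fat synthesis and storage gave 5 higher and 6 lower of 17, the former 3 without control lung 1, 2 or 3, control muscle 3 or tumour-bearing muscle 1, 2 without control muscle 2 and 1 on log2(TPM + 1). The integrated stress response gave 4 higher and 7 lower of 19, the NRF2 antioxidant genes 3 and 7 of 16, complement and coagulation 4 and 7 of 20, and polyamine and amino acid genes 3 and 3 of 19. Differences in both directions were found for myostatin, activin and TGF-beta (6 higher and 8 lower of 22, with Tgfbr3, betaglycan, at -5.04 ± 0.46) and the p53 targets (4 and 5 of 14).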

How the data were processed

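RNA of 8 lung and 6 gastrocnemius libraries was sequenced with 100-base reads. Per the submitters' processing notes, the authors used Trim Galore, STAR 2.7.9a and RSEM 1.3.3; the labels name no genome build, annotation or strand setting. The deposited files hold RSEM expected counts and TPM, the latter scaled by the authors for effective length.

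Expected counts were rounded and all 14 libraries fitted together with edgeR 4.0.16 (R 4.3.3; TMM scaling, filterByExpr by group, quasi-likelihood test, no block, Benjamini-Hochberg over 19834 genes, threshold 0.05). SE is the absolute log2 change over the root of F. Symbols were matched for 52083 of 55416 genes (94.0%) through RefSeq, which also gave the promoter sequences. On simulated counts for 19834 genes, the test of the difference recovered 4%, 42%, 74% and 96% of 50 genes each changed 2-, 4-, 8- and 16-fold and called 2 others. Far fewer genes were changed there than were called here, which makes the cutoff on p stricter there. These shares therefore do not give the recovery in the data, where small differences can still be missed. A count of 3 in a library corresponds to 0.0491 to 0.0924 CPM, counting error only.

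Genes were named by rule: Ctsl, the 5 genes of each opposite and shared direction with the smallest larger p of the tissues, the 4 of each confined direction with the largest change, the 3 most extreme differences each way, and the member of each pathway list with the smallest p of the difference. Except for Ctsl and list members, clones, predicted genes, receptor segments and genes without a symbol were left out of this choice. The extreme differences were taken among those that passed. The genes, lists and classes were chosen with earlier results of these data known. Single values of 2 cholesterol genes are not reported here, though list counts include them. Alternatives were other scalings, no filter, a replicate block, DESeq2 1.42.0, limma 3.58.1 on weighted counts and on log2(TPM + 1), other bounds, each tissue alone and each library left out.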

Additional observations from a re-analysis of the deposited data

Results flagged for a closer look

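For 61 of the 70 genes named by rule, the tumour's log2 change differed between lung and muscle by the test of the difference itself. The highest differences, lung minus muscle on the log2 scale, were those of Fer1l6 9.83, Etv4 8.39, Habp2 8.20, Cxcl9 7.45, Tbx15 6.17, Oaf 5.89, Col1a1 5.76, Aurka 5.68, C1qtnf6 5.15, Rps2-ps10 4.8, Phgdh 4.38, Ugdh 4.20, Padi2 4.15 and Eno1 4.0. Smaller positive differences were those of Cyp51 3.99, Ankrd37 3.75, Arhgap18 3.54, Spats2l 3.47, mt-Co3 3.09, Ulk4 3.03, Fstl1 2.93, Col5a1 2.89, Aldh1a2 2.73, Lst1 2.54, Rpl12 2.19, Atp5a1 1.70 and Psme1 1.66. On the negative side, where lung was lower, the lowest were Rsc1a1 -11.57, Lyz1 -10.56, Cdhr3 -9.88, Acot1 -8.13, Galnt15 -7.64, Cebpd -7.63, Acer2 -7.41, Zfp641 -7.17, Jun -6.91, Dnaja4 -6.58, Sesn1 -6.49, Car14 -6.31 and Tmcc2 -6.12. Next came Pdlim3 -6.09, Rora -5.40, Tgfbr3 -5.04, Hsd11b1 -4.74, Nol3 -4.18, Glul -3.94, Serping1 -3.82, Cryab -3.68, Foxo1 -3.63, Gadd45a -3.40, Fbxo32 -3.13, Ctsf -3.09 and Lpin1 -2.92. Then followed Slc30a1 -2.65, S100a8 -2.64, Nfkbib -2.54, Lrba -2.52, Tfeb -2.41, Llph-ps2 -1.42, Psmd11 -1.41 and Psmd4 -1.21. Since the rule picks genes by small p-values or large differences, passing the test is a property of the choice for many of them.

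In the same 70 genes, 5 groups held a library far from the others of its group. Tumour-bearing lung 3 had 0.974 CPM of Klhl23, 191 CPM of H2-Ab1 and 6.65 CPM of Sesn1, in each case the highest of its group. Tumour-bearing lung 2 had 145 CPM of Fstl1, and tumour-bearing lung 5 had 7.88 CPM of Aldh1a2. Chance marks about 1 in 20 groups by this measure, and 70 groups of 5 were looked at.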

How the results depend on the processing

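The number of called differences, 7057, lay between 6357 (no filter) and 9025 (log2(TPM + 1)) over the other settings and between 5703 and 7641 with 1 library left out. Class counts moved more. Opposite genes were 516, with 793 in DESeq2, 148 on log2(TPM + 1) and 212 to 908 with a library left out. Shared genes were 950, with 313 on log2(TPM + 1) and 467 to 1290 with a library left out. Lung-confined genes were 871, with 1813 on log2(TPM + 1), 20 with the bound at 0.5 and 546 to 986 with a library left out. Muscle-confined genes were 383, with 159 on log2(TPM + 1), 16 with the bound at 0.5 and 194 to 818 with a library left out. The cause of the moves was not tested. In every one of the 14 omissions, 67 of 273 opposite genes with lung higher kept their class, as did 63 of 243 with lung lower. So did 208 of 536 shared higher and 124 of 414 shared lower genes. For lung-confined genes the counts were 199 of 508 higher and 118 of 363 lower. For muscle-confined genes they were 84 of 277 higher and 20 of 106 lower.

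Of 1540 values of the 70 named genes under alternatives, 1501 kept direction and side of the threshold, 16 lost the call, 21 gained one and 2 changed sign. The differences of Col6a2 and Ssc5d became -0.35 and -0.44 on log2(TPM + 1), and the cause was not tested. With the replicate number as a block, 6474 differences were called and the classes held 509 opposite, 823 shared, 893 lung-confined and 284 muscle-confined genes. Samples of the same number had a median correlation of deviations of 0.007 (-0.115 to 0.232 over 18 pairs), against -0.004 over 54 pairs of unlike numbers. In muscle, same-numbered control and tumour-bearing libraries had 0.232, -0.028 and 0.227 for numbers 1, 2 and 3. Control muscle 1 with tumour-bearing muscle 3 had -0.257, and control muscle 3 with tumour-bearing muscle 1 had -0.225. Deviations within a group of 3 depend on each other, so these values cannot decide whether the numbers mark pairs. The labels do not say whether they mark a shared mouse, litter or day, and the numbers were not taken as pairing.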
